A study of Mus musculus with 61 samples.

Results

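The comparison of the inbred mouse strains C57BL/6J and DBA/2J took in 20 of the 61 arrays of the series, chosen by the strain name at the start of the sample title. Of these, 10 arrays carried RNA of C57BL/6J and 10 carried RNA of DBA/2J, with 2 arrays of each strain for each of 5 regions. The regions were the pituitary, the hippocampus, the periaqueductal gray of the midbrain (pag), the hypothalamus and, in the basal forebrain, the bed nucleus of the stria terminalis (bnst). All mice were untreated wild-type males of 8 weeks. The hippocampus arrays each held RNA of 1 mouse, the hypothalamus and pag arrays RNA pooled from 2 mice, the pituitary arrays RNA pooled from 5 mice, and the bnst arrays RNA pooled from 2 mice on replicate 1 and from 3 mice on replicate 2, alike in both strains. By the study's methods, the replicates of a group came from different animals or different pools of animals. The series set 6 inbred strains side by side to relate expression in the brain to DNA variation. The other 41 arrays, of 4 strains, served here only to show on which side of a difference those strains lay.

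C57BL/6J and DBA/2J are long-established inbred strains and the parents of the BXD recombinant inbred lines, a panel used to map the genes behind differences in behaviour and alcohol response. Within an inbred strain all animals carry nearly the same DNA, and a transcript that differs between strains in many tissues can reflect a variant in or next to its own gene. On these arrays each transcript is read by a probe set, a group of short oligonucleotides mostly placed near the end of the transcript, and many genes have several probe sets. A change in transcript level and a sequence difference between the strains under the oligonucleotides cannot be told apart by a single probe set.

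Array means lay between 180.5 and 197.0 signal units, and replicate arrays correlated with a median r of 0.995 (range 0.988 to 0.998). Array medians differed between the strains, with 64.01 to 67.1 in C57BL/6J and 48.2 to 48.4 in DBA/2J in the pituitary and 54.9 to 56.2 in C57BL/6J and 42.6 to 44.4 in DBA/2J in the bnst. In the other 3 regions they lay within 48.2 to 53.5 in C57BL/6J and 45.2 to 56.1 in DBA/2J. The sum over 8 pituitary cell genes was highest on pituitary arrays (40936 to 49081, elsewhere at most 7150.01), and the sum over 8 hippocampal neuron genes on hippocampus arrays (8236 to 8723, elsewhere at most 2541). The hypothalamic neuron sum was highest on hypothalamus arrays (14678 to 17798, elsewhere at most 11270). The midbrain neuron sum was highest on pag arrays (4318 to 5152, elsewhere at most 2780). No marker list was drawn up for the bnst. Some arrays held markers of another tissue. The pituitary sum was 7150.01 and 237 on the C57BL/6J hypothalamus arrays and 2514 and 1841 on the DBA/2J ones. It was 2820.04 on replicate 2 of the C57BL/6J hippocampus and 102 to 117 on the other 3 hippocampus arrays. In the bnst it was 613 and 708 in C57BL/6J and 109 and 99.2 in DBA/2J. In the pag it was 649 and 386 in C57BL/6J and 295 and 261 in DBA/2J. The thalamic neuron sum over 7 genes was highest in the bnst (elsewhere at most 2930). It was 5900 and 5354 on the C57BL/6J bnst arrays and 6469 and 7109 on the DBA/2J ones. The choroid plexus sum over 7 genes was 881 and 3006 on the C57BL/6J bnst arrays and 7012 and 8550.02 on the DBA/2J bnst arrays. In the hippocampus it was 1332 and 6686 in C57BL/6J and 4610.1 and 1817 in DBA/2J.

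Over the 5 regions, 8381 of 43010 probe sets (19.5%) were called between the strains, 4751 (11.0%) higher and 3630 (8.44%) lower in C57BL/6J. A call means an adjusted p under 0.05 in the limma fit with region as a block, where differences are log2 values of C57BL/6J minus DBA/2J after signals under 12.8 were raised to that floor. Most called differences were small: 563 (1.31%) were over 2-fold higher and 178 (0.414%) over 2-fold lower. The 10 C57BL/6J arrays and the 10 DBA/2J arrays did not overlap for 481 probe sets (1.12%), 360 of them (0.837%) higher in C57BL/6J. The direction of the calls went with brightness. Among 19357 probe sets with a mean signal under 50, 9.83% were called higher and 1.42% lower, while among 1580 probe sets over 1000, 3.92% were called higher and 33.7% lower. When each of 17677 genes was given by its brightest probe set, 7.80% were called higher and 12.6% lower. The split also moved with the scaling: higher calls made up 56.7% of all calls as deposited, 19.4% with each array scaled to 1 median (2345 higher and 9747 lower) and 46.2% after quantile normalization (2902 higher and 3375 lower). The array medians given above move with these directions, and their part was not tested.

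Within regions the number of calls differed widely. In the pituitary 29.4% of probe sets were called, 8132 higher (18.9%) and 4493 lower (10.4%) in C57BL/6J. In the bnst the share called was 20.7%, with 5381 higher (12.5%) and 3527 lower (8.20%). In the pag it was 8.18%, with 1800 higher (4.19%) and 1718 lower (3.99%). The hippocampus had 1066 higher (2.48%) and 711 lower (1.65%), 4.13% in all, and the hypothalamus 947 higher (2.20%) and 578 lower (1.34%), 3.55% in all. The pituitary and bnst, with the most calls, were also the regions whose array medians lay furthest apart. Of all probe sets, 55.7% were called in no region and 30.5% in 1.

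**Figure D1:**
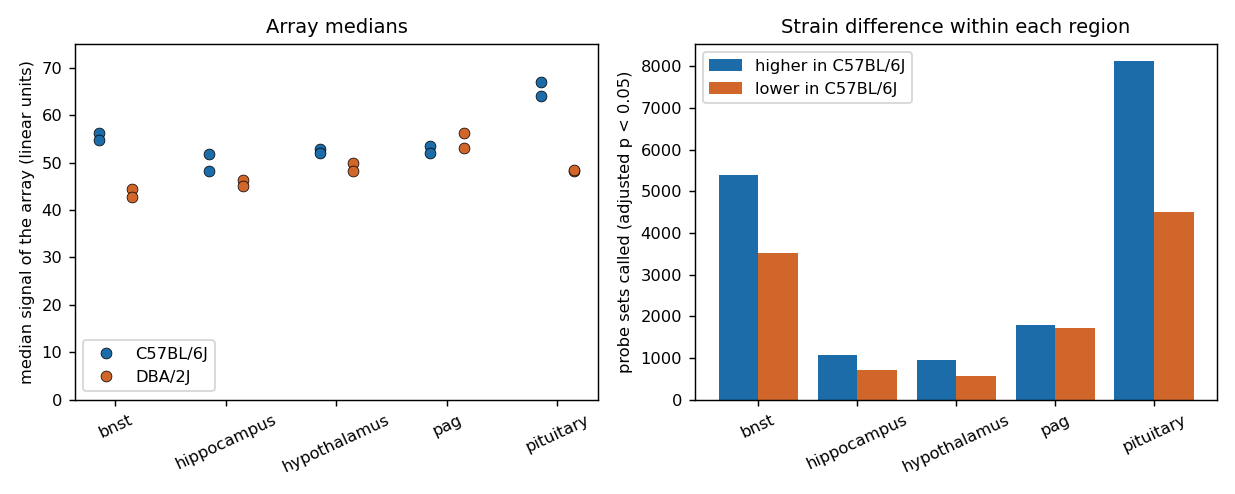
Left, median signal of each array (linear units, points) by region, C57BL/6J left of DBA/2J. Right, number of probe sets called in each region (adjusted p under 0.05), higher and lower in C57BL/6J; the pituitary had 8132 higher and 4493 lower.

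A difference in the same direction in all 5 regions was called for 523 probe sets (1.22%), 352 (0.818%) higher and 171 (0.398%) lower in C57BL/6J. The median log2 difference was 1.58 for the higher and -1.09 for the lower, against 0.06 over all probe sets tested, which were not chosen by a call. Of these probe sets 206 were over 2-fold higher in each region (0.479% of all tested) and 73 over 2-fold lower in each (0.170%). The arrays of the strains did not overlap at all for 231 of the 352 and for 90 of the 171. The size of the difference still depended on the region for 134 of the 523 (0.312% of all tested), by the limma test of the interaction. Over all 43010 probe sets that interaction was called for 6502 (15.1%). The higher ones named 217 genes and the lower ones 112.

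Alad, an early enzyme of heme synthesis, was lower in C57BL/6J in every region. Its brighter probe set gave 90.3, 131 and 160.1 in C57BL/6J and 347, 491 and 628 in DBA/2J (lowest, median and highest array, in signal units), with no overlap. The log2 difference was -1.90 ± 0.08 (SE, n = 10 arrays a strain), 3.74-fold, with a limma adjusted p of 1.05e-11, and it ran from -1.54 in the pag to -2.28 in the pituitary. The second probe set was also lower over the regions, with a difference of -0.68 ± 0.16 (limma adjusted p = 0.00742) but, taken by region, was called only in the hippocampus and hypothalamus. Hdhd3, which encodes a protein of the haloacid dehalogenase family and lies next to Alad in the RefSeq gene order, was chosen after its values were seen. It gave 42.3, 51.6 and 64.3 in C57BL/6J and 112, 137 and 160.1 in DBA/2J, a log2 difference of -1.39 ± 0.08 (limma adjusted p = 6.55e-10), and was called in all 5 regions.

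Glo1, the glyoxalase that removes the reactive aldehyde methylglyoxal, was lower in C57BL/6J with all 4 of its probe sets, each called in all 5 regions. The probe set with the largest difference gave 251, 412 and 469 in C57BL/6J and 718, 874 and 994 in DBA/2J, with a log2 difference of -1.17 ± 0.06 (limma adjusted p = 7.22e-11), and the other 3 gave -0.75 to -0.96. Its neighbours in gene order, looked up after these values were seen, did not pass the test over the regions, with -0.18 to -0.01 for the 3 probe sets of Btbd9 and 0.03 and 0.19 for the 2 of Dnah8. Within regions, 1 probe set of Btbd9 was called higher in the pag (0.48). For Dnah8, 1 was called higher in the pituitary (0.92), where both DBA/2J arrays were under the floor.

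The promoters of Alad and Glo1 are shown because every probe set of these genes moved the same way, and those of Rab6b and Gnrhr because their largest differences lay in the pituitary. Each runs 5′ to 3′ from 250 bases before to 50 bases after a start of the gene in RefSeq on GRCm38.p6. The stretches are chr4:62520014-62520313 on the minus strand (Alad, 1 of 2 starts listed), chr17:30612610-30612909 on the minus strand (Glo1), chr9:103111824-103112123 on the plus strand (Rab6b) and chr5:86197852-86198151 on the minus strand (Gnrhr). Capitals mark matches to the CCAAT box, to the GC box letters GGGCGG and to the TATA box letters TATAAA on either strand, and 2 of the 3 GC box matches of Glo1 overlap each other.
Alad: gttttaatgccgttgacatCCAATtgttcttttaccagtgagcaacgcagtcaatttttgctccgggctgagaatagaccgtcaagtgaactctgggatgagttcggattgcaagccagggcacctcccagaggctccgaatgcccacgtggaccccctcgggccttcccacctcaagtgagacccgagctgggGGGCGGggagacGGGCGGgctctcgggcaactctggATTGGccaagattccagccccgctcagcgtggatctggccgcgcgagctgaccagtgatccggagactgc
Glo1: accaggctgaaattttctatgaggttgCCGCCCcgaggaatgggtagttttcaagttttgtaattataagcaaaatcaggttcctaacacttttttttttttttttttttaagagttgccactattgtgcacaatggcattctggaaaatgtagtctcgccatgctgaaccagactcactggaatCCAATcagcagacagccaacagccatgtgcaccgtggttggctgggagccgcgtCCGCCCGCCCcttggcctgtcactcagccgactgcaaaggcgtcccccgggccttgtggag
Rab6b: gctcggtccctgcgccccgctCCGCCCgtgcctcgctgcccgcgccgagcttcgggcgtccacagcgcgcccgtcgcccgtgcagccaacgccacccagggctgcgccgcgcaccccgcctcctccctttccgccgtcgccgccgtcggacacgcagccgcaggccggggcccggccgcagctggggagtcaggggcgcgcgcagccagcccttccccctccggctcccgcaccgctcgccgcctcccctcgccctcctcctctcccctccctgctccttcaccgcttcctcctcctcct
Gnrhr: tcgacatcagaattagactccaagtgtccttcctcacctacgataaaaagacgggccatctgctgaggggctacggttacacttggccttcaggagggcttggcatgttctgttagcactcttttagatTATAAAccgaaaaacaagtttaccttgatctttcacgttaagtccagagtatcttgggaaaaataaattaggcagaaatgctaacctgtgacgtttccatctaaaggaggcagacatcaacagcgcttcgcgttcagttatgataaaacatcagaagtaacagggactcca

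The CCAAT box was in 37.4% of all 32851 promoters of this length, the GC box letters in 35.7% and the TATA box letters in 13.6%. Alad held 2 matches to the CCAAT box and 2 to the GC box, Glo1 held 1 to the CCAAT box and 3 to the GC box, Rab6b held 1 to the GC box and 42 CG dinucleotides, and Gnrhr held 1 to the TATA box and 10 CG dinucleotides. The sequences are those of the reference genome, and the matches describe its letters.

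Cap1, a protein that binds actin monomers, was lower in C57BL/6J with both of its probe sets, each called in all 5 regions. The brighter gave 75.97, 112 and 139 in C57BL/6J and 705, 861 and 1338 in DBA/2J, a log2 difference of -3.11 ± 0.09 (limma adjusted p = 1.52e-13). The dimmer gave 35.7, 62.9 and 88.98 in C57BL/6J and 497, 534 and 934 in DBA/2J, a log2 difference of -3.34 ± 0.11 (limma adjusted p = 5.59e-13). Ppt1, the lysosomal thioesterase next to Cap1 in gene order and likewise chosen after its values were seen, was lower with its brightest probe set, with a difference of -0.57 ± 0.04 (limma adjusted p = 2.38e-08), called in all 5 regions. Of its other 3 probe sets 1 was lower (-0.29) and 1 higher (0.42). Of 16084 protein-coding genes measured, 299 (1.86%) had a call in all 5 regions, and 19 of these lay in 9 runs of neighbouring genes. In 5 of the runs, among them Hdhd3 with Alad and Ppt1 with Cap1, the genes went in 1 direction.

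**Figure D2:**
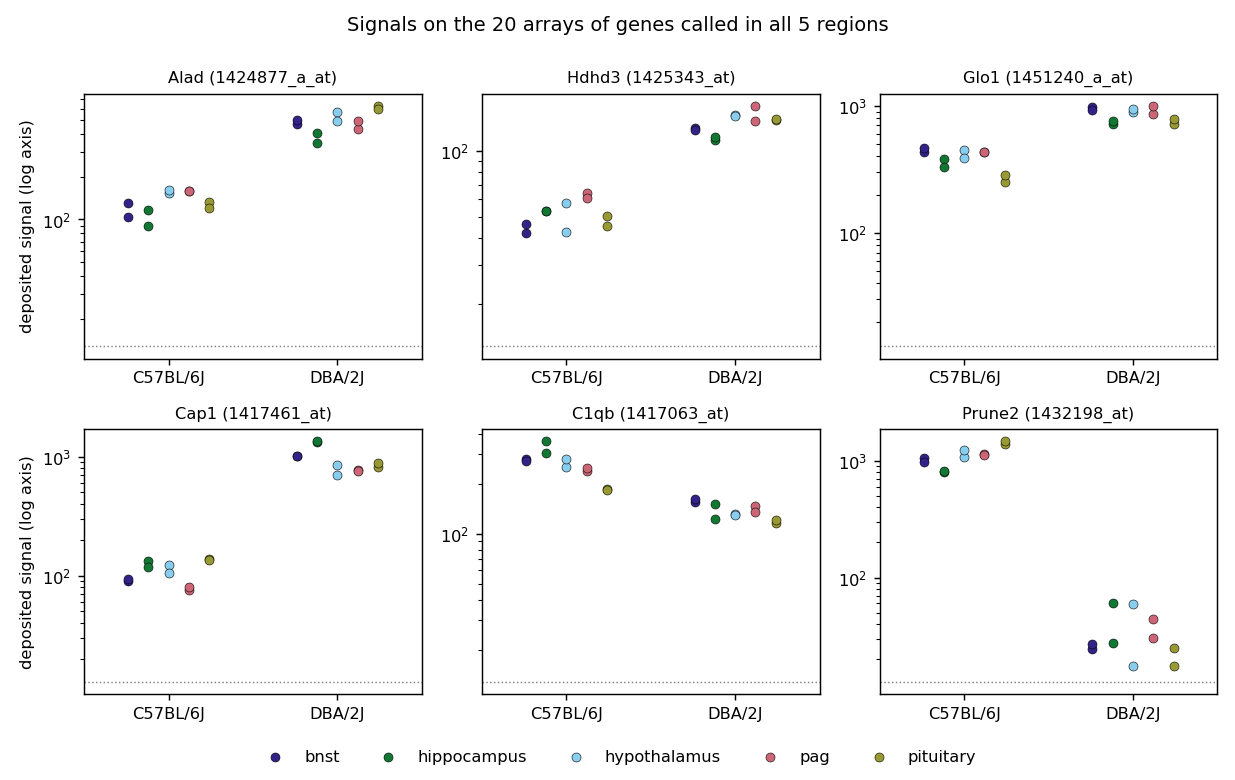
Deposited signal (log axis) of 6 probe sets on the 20 arrays, C57BL/6J left of DBA/2J, each point 1 array by region, with the floor of 12.8 as a dotted line. The strains do not overlap in any panel, and Prune2 lies at 797 to 1467 in C57BL/6J and 17.6 to 61.1 in DBA/2J.

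The largest difference higher in C57BL/6J was that of Prune2. This brain protein with a BCH domain gave 797, 1108 and 1467 in C57BL/6J and 17.6, 27.4 and 61.1 in DBA/2J with its brightest probe set, a log2 difference of 5.16 ± 0.22 (35.8-fold, limma adjusted p = 9.33e-12). Snhg14, the long noncoding host RNA of the imprinted Ube3a region, gave 65.04, 682 and 907 in C57BL/6J and 2.48, 36.3 and 58.00 in DBA/2J, a log2 difference of 3.98 ± 0.25 (limma adjusted p = 2.00e-09). It was 5.55 in the bnst and 2.55 in the pituitary. Phgdh, the first enzyme of serine synthesis, gave 198, 703 and 763 in C57BL/6J and 24.4, 47.1 and 72.9 in DBA/2J with 1 probe set, a log2 difference of 3.52 ± 0.22 (limma adjusted p = 1.98e-09), while its other 3 probe sets gave 0.27 to 0.78, of which 2 were called higher.

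The other named genes higher in all 5 regions had log2 differences of 3.36 to 3.65. They were Adi1, an enzyme of the methionine salvage pathway, Ssbp2, a single-stranded DNA binding protein, Mtmr7, a phosphoinositide phosphatase, Rmst, a long noncoding RNA of neural cells, Trp53bp1, a DNA repair protein, Sbsn, suprabasin, Arhgap26, Sox11, a transcription factor of developing neurons, and Cd99l2, a membrane protein related to CD99. None of the 12 named probe sets overlapped between the strains. For Ssbp2, Sbsn, Arhgap26 and Cd99l2, 9 of the 10 DBA/2J arrays were at or under the floor, so these differences are held down by it.

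Among genes lower in all 5 regions, H2-D1, a class I histocompatibility antigen, was at or under the floor on all 10 C57BL/6J arrays with the probe set named by the rule, with -22.2, -9.58 and 7.44 in C57BL/6J and 149, 245 and 1825 in DBA/2J. Against the floor it was at least 26.5-fold lower (log2 difference -4.73 ± 0.31, limma adjusted p = 2.89e-09), with -7.13 in the pituitary. Of its 9 probe sets 4 were called lower and none higher. Its brightest did not pass (-0.02, limma adjusted p = 0.913), and genes of this family are close relatives whose probe sets can read more than 1 gene, so the direction of the gene is uncertain. Tmem87a, a Golgi membrane protein, gave -7.70, 8.85 and 28.6 in C57BL/6J and 267, 305 and 549 in DBA/2J, a log2 difference of -4.46 ± 0.15. Zfp704, a zinc finger protein, gave -42.97, -13.3 and 2.74 in C57BL/6J and 86.8, 153 and 199.99 in DBA/2J, under the floor on all 10 C57BL/6J arrays and at least 11.02-fold lower.

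Stab2, a scavenger receptor for hyaluronan, gave 16.4, 27.3 and 146 in C57BL/6J and 104, 386 and 998 in DBA/2J, with a log2 difference of -3.38 ± 0.18 (limma adjusted p = 1.70e-10). Its ranges overlapped across regions but the difference was called in each region. The other lower genes were Pdxdc1, Per3, AI506816, Pi4kb, Paip1, Hspa13 and Supt16, at -2.31 to -4.27. Per3, a period protein of the circadian clock, had 6 probe sets, of which 3 were called lower (2 of them in all 5 regions, at -2.89 and -0.88) and 2 higher (0.54 and 0.78).

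Probe sets of 1 gene did not always agree. Of the 209 probe sets called higher in all 5 regions whose gene had another probe set, 94 (45.0%) had another called higher over the regions and none lower, 26 (12.4%) had only others called lower, 24 had both, and for 65 (31.1%) no other probe set was called. Of the 108 called lower, 63 (58.3%) had another called lower and none higher, 13 had only others called higher, 11 had both and 21 (19.4%) had no other called. Over all 24626 probe sets of such genes, 11.8% were called higher and 9.47% lower. These are shares of single probe sets, while the shares above count any other probe set of the gene, so the 2 are unlike measures. Among 8659 genes with at least 2 probe sets, 3728 had a call. Of these, 837 had 2 or more called in 1 direction and none in the other, 325 had calls in both directions and 2566 had 1 call.

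The gap was largest for Pdxdc1, a pyridoxal-dependent decarboxylase-like protein. A probe set higher in C57BL/6J gave 337, 414 and 749 in C57BL/6J and 13.2, 52.9 and 119 in DBA/2J, while another, lower, gave 6.93, 28.6 and 33.8 in C57BL/6J and 423, 507 and 635 in DBA/2J. Their log2 differences were 3.18 ± 0.20 and -4.27 ± 0.12 (limma adjusted p = 2.05e-09 and 1.17e-13), each called in all 5 regions. Prune2 (5.16 and -0.99), Sox11 (3.38 and -1.18), Adi1 (3.65 and -0.90), Ssbp2 (3.62 and -0.30) and Trp53bp1 (3.53 and -0.20) were opposed likewise. For these genes no direction of the gene as a whole is given. Among genes whose probe sets agreed, C1qb, a chain of the first complement component made by microglia, was higher with 3 of 3, and its brightest gave 183, 263 and 358 in C57BL/6J and 116, 133 and 162 in DBA/2J (0.91 ± 0.07, limma adjusted p = 3.23e-08). Myo5a, the myosin that carries pigment granules, was higher with 3 of 3 (0.41 to 0.94), and the GABA-A receptor gene Gabra2 lower with 4 of 4 (-0.83 to -1.44).

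**Figure D3:**
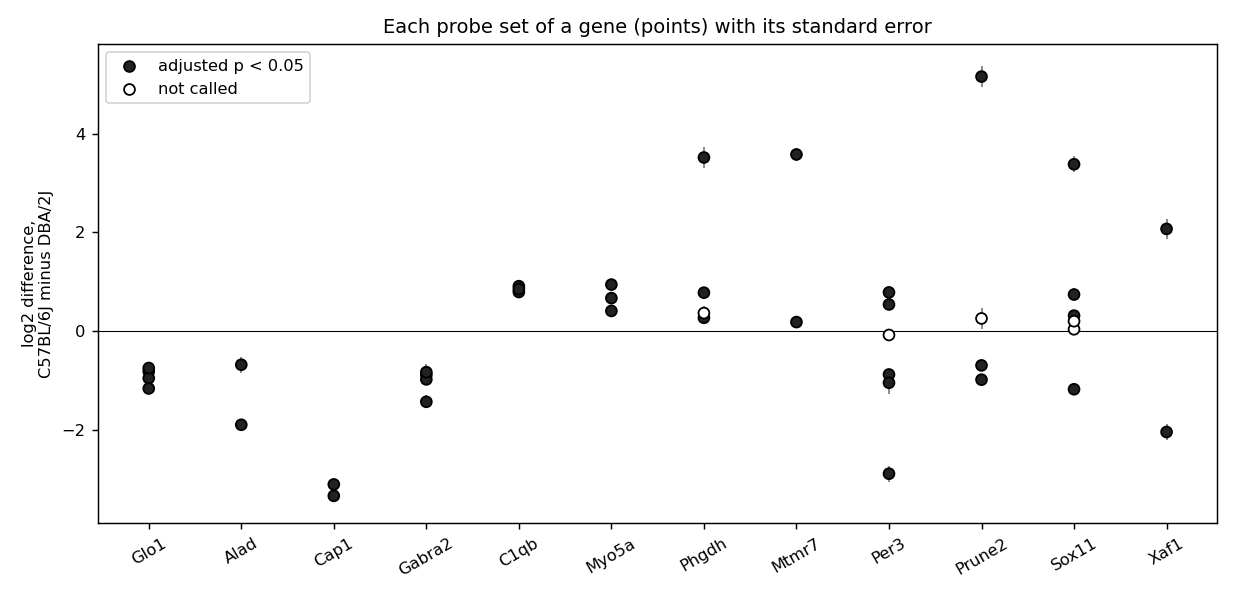
Log2 difference over the 5 regions, C57BL/6J minus DBA/2J, of every probe set (points, with standard error) of 12 genes; filled points passed the limma test (adjusted p under 0.05) and open points did not. All points of Glo1 and Cap1 lie below 0, while Prune2 and Sox11 have filled points on both sides.

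The other 4 strains of the series, 129S6/SvEvTac, A/J, C3H/HeJ and FVB/NJ, lay on both sides of these differences. Of the 523 probe sets called in all 5 regions, all 4 strains were nearer DBA/2J for 131 (25.05%) and nearer C57BL/6J for 89 (17.0%), and for the rest the strains were split. FVB/NJ was nearer C57BL/6J for 51.2% of them and C3H/HeJ for 38.2%. C57BL/6J stood apart for Cap1, whose mean signal with its brighter probe set was 109 in C57BL/6J, 881 to 946 in the other 4 strains and 944 in DBA/2J. The brightest probe set of Prune2 had 1111 in C57BL/6J, 27.7 to 33.99 in the other 4 strains and 33.4 in DBA/2J, and Tmem87a 8.74 in C57BL/6J, 336 to 362 in the other 4 strains and 347 in DBA/2J.

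DBA/2J stood apart for Snhg14, with 624 in C57BL/6J, 534 to 659.7 in the other 4 strains and 33.4 in DBA/2J, and for Stab2, with 49.6 in C57BL/6J, 23.2 to 60.3 in the other 4 strains and 434 in DBA/2J. The probe set of H2-D1 given above was high in A/J (469) and DBA/2J (543) and averaged -7.64 in C57BL/6J. Glo1, with the probe set of the largest difference, averaged 386 in C57BL/6J, 423 in FVB/NJ, 823 in 129S6/SvEvTac, 838 in C3H/HeJ, 1284 in A/J and 856 in DBA/2J. These positions are means over all regions and carry no test.

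The strain difference depended on the region for 6502 probe sets (15.1%) by the limma test of the interaction. A difference in 1 region alone means a call there, none in the other 4, and a value that differed from the mean of the other 4 at an adjusted p under 0.05. It was found for 3851 probe sets in the pituitary (8.95%), 735 in the pag (1.71%), 591 in the bnst (1.37%), 31 in the hippocampus (0.0721%) and 4 in the hypothalamus (0.00930%). In the pituitary 2618 of these were higher (6.09%) and 1233 lower (2.87%) in C57BL/6J. Of those with a mean signal of at least 100 in the higher strain there, 708 were higher and 915 lower. The count of the pituitary alone fell when replicate 2 of the DBA/2J pituitary was left out. With each array scaled to 1 median this count was 3938, and the part of the array medians was not tested.

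Rab6b, a small GTPase of Golgi transport, differed in the pituitary. Its brightest probe set gave 180.2 and 224 in C57BL/6J and 4.40 and 3.61 in DBA/2J, both DBA/2J arrays under the floor. With this probe set the difference there was at least 15.7-fold (log2 3.97 ± 0.09, n = 2 arrays a strain, limma adjusted p = 6.02e-12), while in the other 4 regions it lay between -0.14 and 0.04. On the linear scale, without log, the difference of 198 signal units did not pass (limma adjusted p = 0.119). A second probe set gave 103 and 104 in C57BL/6J and 12.2 and -1.49 in DBA/2J and another gave 56.3 and 54.5 in C57BL/6J and 1.34 and 8.28 in DBA/2J, both at least 4.34-fold higher. These 2 were also called higher in the bnst (0.20 and 0.77) and in the pag (0.49 and 0.95). The last of its 4 probe sets did not pass, with 67.7 and 67.6 in C57BL/6J and 99.2 and 50.3 in DBA/2J. In the pituitary of the other 4 strains the brightest probe set read 8.11 to 25.9.

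Psat1, an enzyme of serine synthesis chosen after its values were seen, was lower in the C57BL/6J pituitary with both of its probe sets. The dimmer of them gave 50.8 and 80.3 in C57BL/6J and 553 and 522 in DBA/2J, a log2 difference of -3.07 ± 0.14 (limma adjusted p = 1.13e-08), and the brighter gave 163 and 207 in C57BL/6J and 783 and 806 in DBA/2J, a difference of -2.11 ± 0.13. In the other 4 regions neither passed the test, with values of -0.31 to 0.05. In the pituitary 129S6/SvEvTac read 128 to 159 with the dimmer probe set, and A/J, C3H/HeJ and FVB/NJ read 460.3 to 558. With the brighter probe set 129S6/SvEvTac read 168 to 228, overlapping C57BL/6J, and A/J, C3H/HeJ and FVB/NJ read 729 to 921.

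Klk1b27, a kallikrein protease, gave 211 and 205 in C57BL/6J and 2.87 and 5.30 in DBA/2J in the pituitary, at least 16.3-fold higher (limma adjusted p = 4.64e-07). Gnrhr, the receptor of gonadotropin-releasing hormone, gave 231 and 212 in C57BL/6J and 25.6 and 19.1 in DBA/2J there with the probe set named by the rule, a log2 difference of 3.32 ± 0.30 (limma adjusted p = 5.67e-06). Its other 2 probe sets went the other way. The brightest gave 162 and 142 in C57BL/6J and 691 and 634 in DBA/2J, a difference of -2.12 ± 0.41 (limma adjusted p = 0.00203), and was called higher in the bnst (1.42). It is part of the pituitary cell sum, which in the bnst was also higher in C57BL/6J, and the part of such markers was not tested. The last gave 62.1 and 86.5 in C57BL/6J and 119 and 156 in DBA/2J in the pituitary, a difference of -0.89 ± 0.17 (limma adjusted p = 0.00200), so the gene has no single direction.

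**Figure D4:**
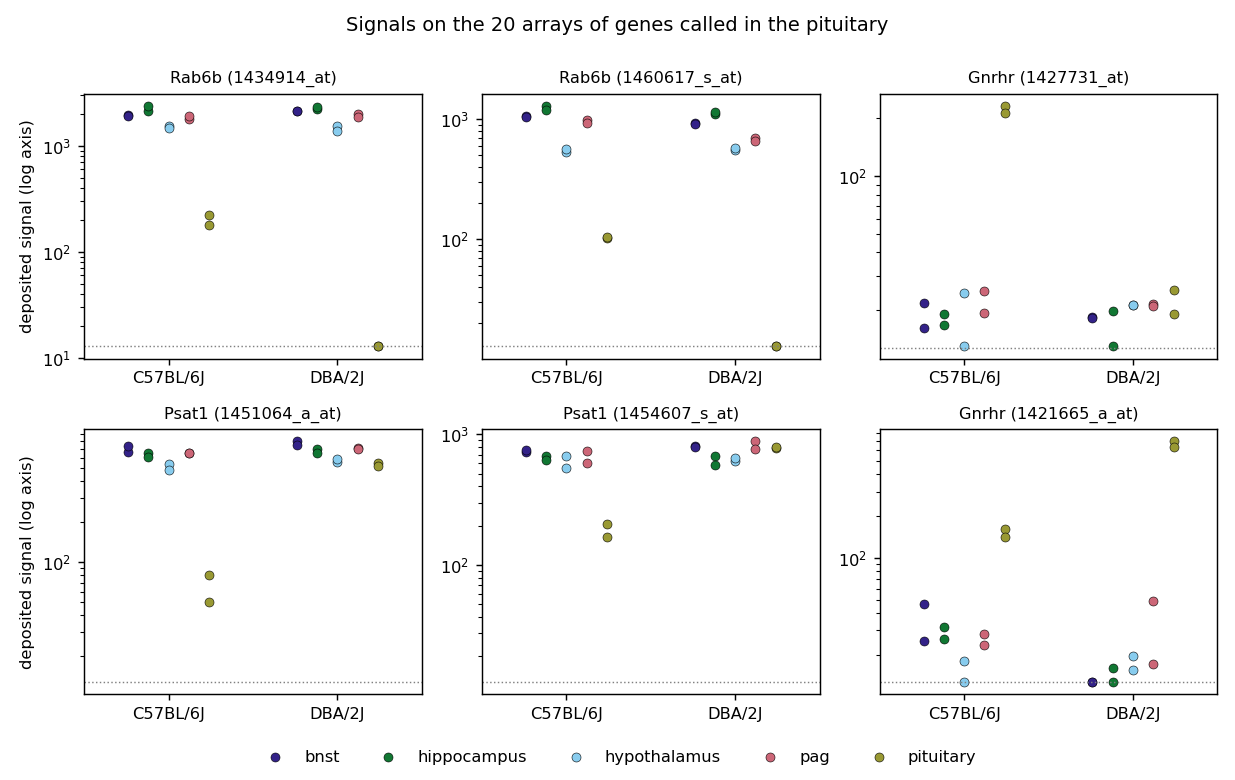
Deposited signal (log axis, values under the floor of 12.8 drawn at the floor, dotted line) of 2 probe sets each of Rab6b, Gnrhr and Psat1 on the 20 arrays, C57BL/6J left of DBA/2J, each point 1 array by region. In the pituitary both Rab6b probe sets are higher in C57BL/6J, both Psat1 probe sets lower, and the 2 shown of Gnrhr go in opposite directions.

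In the bnst the markers of the choroid plexus, the tissue that makes cerebrospinal fluid, were lower in C57BL/6J. Of 7 measured, each by its brightest probe set, 6 were called lower there, against 2277 of all 17677 genes. In the pag 1 was called lower, against 812 of all genes, and in the other 3 regions none. Kcnj13, an inward rectifier potassium channel, gave 23.4 and 37.9 in C57BL/6J and 373 and 668 in DBA/2J in the bnst, a log2 difference of -4.07 ± 0.48 (limma adjusted p = 9.39e-05). Kl, the klotho gene, gave 34.7 and 61.8 in C57BL/6J and 356 and 665 in DBA/2J (-3.39 ± 0.30), and Ttr, the thyroid hormone carrier transthyretin, gave 589.6 and 2619.8 in C57BL/6J and 5543 and 6066 in DBA/2J (-2.22 ± 0.73). In bulk tissue, fewer cells of a type and less RNA per cell cannot be told apart.

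Of the other named genes of the bnst alone, Ecrg4, a secreted peptide precursor, gave 26.00 and 71.7 in C57BL/6J and 699 and 1041 in DBA/2J (-4.30 ± 0.80), and Cldn2, a tight junction protein, gave -3.71 and 3.21 in C57BL/6J and 129.8 and 227 in DBA/2J (at least 13.4-fold lower). The 591 probe sets of the bnst alone were 310 higher (0.721%) and 281 lower (0.653%), and their number was 40 without replicate 2 of the DBA/2J bnst. The choroid plexus sums moved with these genes. Thalamic neuron sums were also lower in the C57BL/6J bnst, while midbrain neuron and pituitary sums were higher. The part of all these sums in the counts was not tested.

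In the pag, Baalc, a membrane-associated protein of the brain, gave 35.1 and 78.00 in C57BL/6J and 359 and 381 in DBA/2J, a log2 difference of -2.82 ± 0.28 (limma adjusted p = 2.77e-05). Zic1, a transcription factor of the dorsal neural tube, gave 57.8 and 72.3 in C57BL/6J and 176 and 344 in DBA/2J (-1.93 ± 0.32). Zfp862-ps, a zinc finger pseudogene, gave 59.3 and 35.5 in C57BL/6J and 166 and 210.3 in DBA/2J (-2.03 ± 0.25). All 3 were lower in C57BL/6J, as were 450 (1.05%) of the 735 probe sets of the pag alone. These 735 dropped to 256 when replicate 2 of the C57BL/6J pag was left out. Some marker sums were also lower in the C57BL/6J pag, while others were higher. The sum over 8 astrocyte genes was 8299.8 and 8463 in the C57BL/6J pag and 9980.02 and 10104 in the DBA/2J pag. Of the 8, 3 were called lower and 1 higher there, against 812 lower and 566 higher of all 17677 genes. The sum over 7 thalamic neuron genes was 2293 and 2299 in C57BL/6J and 2779 and 2930.3 in DBA/2J, with 1 of the 7 called lower. Sums for choroid plexus and for striatal, hippocampal and hypothalamic neurons were lower in C57BL/6J too. Oligodendrocyte sums ran the opposite way, spanning 17010 to 18144 on C57BL/6J pag arrays against 16129 to 16753 for DBA/2J. Endothelial sums likewise spanned 1336 to 1342 for C57BL/6J against 1028 to 1205 for DBA/2J. The pituitary sum given above was higher in the C57BL/6J pag as well. The part of all these sums in the pag differences was not tested.

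In the hippocampus alone, Fam163a gave 126 and 143 in C57BL/6J and 47.8 and 26.6 in DBA/2J (1.91 ± 0.32, limma adjusted p = 0.00226). Slc27a2, a fatty acid transport protein, gave 45.8 and 43.1 in C57BL/6J and 125 and 133 in DBA/2J (-1.54 ± 0.17), and Col11a1, a fibrillar collagen chain, gave 60.04 and 51.95 in C57BL/6J and 141 and 130.1 in DBA/2J (-1.28 ± 0.17). Without the C57BL/6J hippocampus array that held pituitary markers, these 3 differences were 1.82, -1.50 and -1.17 and were still called. In the hypothalamus alone Nsa2, a ribosome biogenesis factor, gave 176 and 205 in C57BL/6J and 65.7 and 87.2 in DBA/2J (1.33 ± 0.16, limma adjusted p = 0.000134) and was the only gene named by the rule there. Without replicate 1 of the C57BL/6J hypothalamus, the array with the highest pituitary sum there, the difference was 1.44 and was still called.

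**Figure D5:**
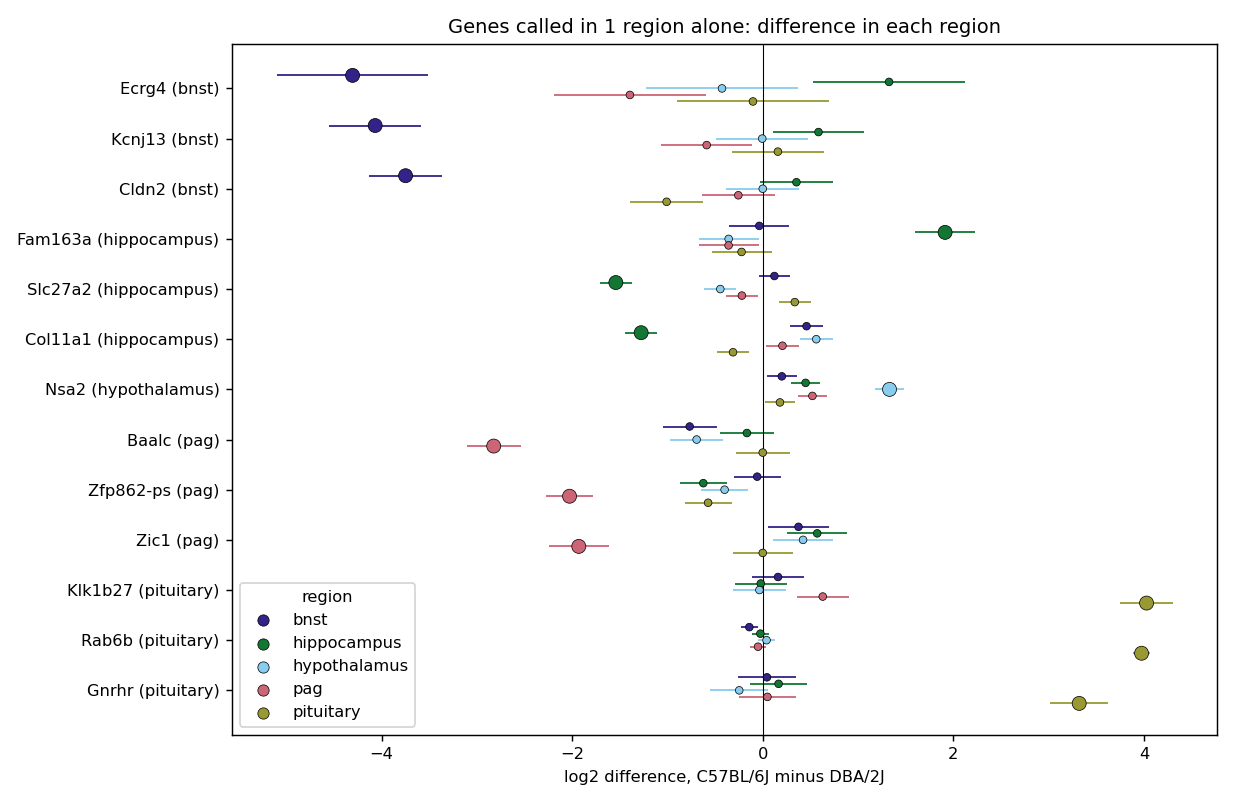
Log2 difference, C57BL/6J minus DBA/2J, in each of the 5 regions (points with standard error) for the 13 genes named as called in 1 region alone, with a large point for that region. Ecrg4, Kcnj13 and Cldn2 lie at -4.30 to -3.75 in the bnst, and Klk1b27, Rab6b and Gnrhr at 3.32 to 4.03 in the pituitary.

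Another 718 probe sets (1.67%) were called higher in 1 region and lower in another. Kifap3, the protein that links kinesin motors to cargo, gave 80.8 and 95.1 in C57BL/6J and 161 and 143 in DBA/2J in the pituitary (-0.79 ± 0.09), while in the pag it gave 584 and 672 in C57BL/6J and 371 and 389.5 in DBA/2J (0.72 ± 0.09). Bola2, a protein of iron-sulfur cluster handling, gave 129 and 121 in C57BL/6J and 309 and 316 in DBA/2J in the pituitary (-1.33 ± 0.08) and 424 and 469 in C57BL/6J and 297 and 317 in DBA/2J in the pag (0.54 ± 0.08). Tnfrsf19, a receptor of the tumour necrosis factor family, was lower in the pituitary (-1.68) and higher in the pag (0.51), and Fstl5 lower in the pituitary (-1.14) and higher in the bnst (0.34) and hypothalamus (0.32). Kctd4 was higher in the pituitary (2.03) and lower in the bnst (-0.39), and Pip5k1b, a phosphoinositide kinase, higher in the pituitary (2.28) and lower in the pag (-0.72).

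The gene lists are given beside the shares over all genes, 7.80% higher and 12.6% lower. In the list of genes with known variants between the strains, 3 of 17 were called higher and 5 lower, with a median log2 difference of 0.06 against 0.01 over all genes. Beside Alad, Glo1, Gabra2 and Myo5a, these included Nnt, the mitochondrial enzyme that makes NADPH, which gave 165, 215 and 401 in C57BL/6J and 249, 336 and 758 in DBA/2J (-0.71 ± 0.08, limma adjusted p = 3.88e-06) and was called in all regions but the hippocampus. Kcnj9, a G protein-gated potassium channel, gave 58.1, 126 and 283 in C57BL/6J and 60.4, 372 and 675 in DBA/2J (-1.23 ± 0.14, limma adjusted p = 7.50e-06), called in all regions but the pituitary, where the value was -0.20. Mpdz, a scaffold protein of synapses and junctions, was higher by 0.28 and the complement gene Hc by 0.47, and neither call was kept with each array scaled to 1 median.

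Of 12 heme genes, 4 were called lower (Alas1, Alad, Fech and Blvrb) and none higher, but the calls of Fech and Blvrb were lost in 18 of 29 and 16 of 28 other settings. Of 26 genes of glutathione and aldehyde detoxification, 9 were lower and 5 higher. Gsr, glutathione reductase, gave 133, 169 and 189 in C57BL/6J and 204, 237 and 269.9 in DBA/2J with no overlap (-0.53 ± 0.07, limma adjusted p = 1.69e-05), and the glutathione transferases Gstt2 and Gsta4 gave -0.56 and -0.36. The 5 higher ones, among them the aldehyde dehydrogenases Aldh7a1 (0.48) and Aldh1a1 (0.39), were not called with each array scaled to 1 median.

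Of 12 GABA-A receptor subunits, each by its brightest probe set, Gabra2 and Gabrb1 (-0.28) were called lower and none higher. Another probe set of Gabrb1 was higher, by 1.25 and in all 5 regions. The brightest probe set of Gabrb2 gave -0.04 and did not pass, while its other 4 were called higher (0.50 to 1.14), 3 of them in all 5 regions. Gabra4 and Gabrg1, subunits of the same gene cluster, gave -0.24 to 0.13 over their 4 probe sets and did not pass over the regions, while 1 probe set of Gabra4 was called lower in the pituitary (-1.35), and 1 of Gabrg1 was called lower in the pag (-0.52) and the other higher in the bnst (0.71). Of 20 glutamate receptors, Gria1, an AMPA receptor subunit (-0.37), and Grik5, a kainate receptor subunit (-0.26), were lower. The other probe set of Gria1 did not pass over the regions (0.08). It was called higher in the hypothalamus (0.26) and pag (0.20) and lower in the pituitary (-0.14). Of 27 monoamine and opioid genes, 3 were higher. Slc6a3, the dopamine transporter (0.94), kept its call in all 29 other settings, while Slc18a2 lost it in 14 and Oprl1 in 19. Of 31 potassium channels 3 were lower. Kcnj9 kept its call in all 29, while Kcnn2 lost it in 11 and Kcnk2 in 17.

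Among 21 genes of antigen presentation, 6 were higher and 3 lower in C57BL/6J. B2m, the light chain of class I molecules, gave 776, 977 and 3833 in C57BL/6J and 499.9, 669 and 2459 in DBA/2J (0.59 ± 0.06, limma adjusted p = 1.32e-06) and was called in all 5 regions. H2-Ea, a class II chain, gave 16.04 and 6.22 in C57BL/6J and 268 and 190.3 in DBA/2J in the pituitary (-3.98 ± 0.22), and H2-Q2, a class I gene, gave 149 and 129 in C57BL/6J and 4.21 and -0.21 in DBA/2J there (at least 10.8-fold higher). Of 21 interferon-induced genes 2 were higher and 3 lower. The lower probe set of Xaf1 (-2.05), an inducer of cell death, stood against another that was higher (2.07).

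None of 18 pituitary hormone genes and regulators and none of 18 hypothalamic neuropeptides was called over the regions by limma. At an unadjusted p under 0.05 there were 2 and 1, against 6159 of all 17677 genes. In the pituitary Fshb and Lhb, chains of the gonadotropins, gave -0.27 and -0.16 and did not pass. Nr5a1, a transcription factor of gonadotropes, gave 82.5 and 94.5 in C57BL/6J and 269 and 258 in DBA/2J there (-1.58 ± 0.20, limma adjusted p = 0.000117). In that region 4 of the 18 pituitary genes were called lower and 1 higher, and 3 of the 18 neuropeptides lower and 2 higher. Over all 17677 genes 2660 were called lower and 2743 higher in the pituitary. The peptide genes Avp (-1.90), Cartpt (-2.46) and Gal (-1.23) were lower in the pituitary and Npy (1.30) and Adcyap1 (1.48) higher. No neuropeptide of the list was called in the hypothalamus. Of 16 clock genes 4 were lower and 1 higher, of 16 immediate early genes 3 were higher, and of 10 pigment cell genes only Myo5a was called.

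Of the cell type lists, the oligodendrocyte genes had the most calls, with 5 of 9 higher over the regions (Mag by 0.48, Mog by 0.47, Ermn by 0.46, Aspa by 0.41 and Mobp by 0.21), a median log2 difference of 0.23. In the pituitary 6 of 9 were called higher and 1 lower, against 2743 and 2660 of all 17677 genes. The summed levels there were 758 to 807 in C57BL/6J and 567 to 636 in DBA/2J. In the bnst the sums ran the other way, with 17550.1 and 17049.9 in C57BL/6J and 18703 and 18258 in DBA/2J. In the other 3 brain regions they were 14247 to 18144 in C57BL/6J and 11895 to 16753 in DBA/2J. Aspa was called lower in the bnst (-0.52) and none of the 9 higher, against 2277 and 1671 of all 17677 genes. The calls of Aspa and Mobp over the regions were lost in 21 and 19 of 29 other settings. With each array scaled to 1 median these 5 genes gave 0.05 to 0.29 and none was called. Of 8 microglia genes C1qb was higher and Ctss, a lysosomal protease, lower (-0.26), of 8 astrocyte genes Gja1, a gap junction protein, was lower (-0.21, a call lost in 12 of 29 other settings), and Slc6a3 and Nkx2-1 were the only calls in the lists of midbrain and hypothalamic neurons. No endothelial, red blood cell, choroid plexus, thalamic, striatal, hippocampal or pituitary cell marker was called over the regions by limma. At an unadjusted p under 0.05 there were 2 each for choroid plexus and hippocampal neurons, 1 each for thalamic and striatal neurons and none for the others. Over all 17677 genes there were 6159.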

How the data were processed

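Total RNA of the 20 samples was labelled and hybridized to 1-colour Affymetrix mouse arrays, 1 array a sample. The deposited values are intensity on a linear scale. Per the study's methods, the authors ran Affymetrix software and the TeraGenomics absolute analysis. Its version and how it corrects background and scales arrays are not given in the sources used here, and Present calls were not used here. Of 45101 probe sets, 64 controls were left out, and 5.24% of values were below 0. Of the other 45037, 34945 named 1 gene, 932 several and 9160 none in the platform annotation, and 34741 symbols were updated by gene identifier.

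Signals under 12.78, the 20th percentile of all values on the 61 arrays, were raised to it and log2 was taken. The 2027 probe sets at the floor on all 20 arrays were left out, which left 43010. Fits used limma 3.58.1 (lmFit, eBayes with a trend) in R 4.3.3, with region as a block over the 5 regions (14 residual degrees of freedom) and with the 10 group means within regions and for the interaction (10 residual degrees of freedom). P-values were adjusted by Benjamini-Hochberg over all 43010 within each contrast, with a threshold of 0.05. The fits were tested on simulated data.

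Named genes have a probe set that names 1 gene and are the 12 largest differences each way among those called in all 5 regions, the 3 largest called in each region alone (both with a mean signal of at least 100 in the higher strain), the 6 with the smallest interaction p among those opposed between regions, the 6 with the widest gap between opposed probe sets that both have a mean signal of at least 100 in the higher strain, and the list members. A list member is given by its brightest probe set. Members and lists were chosen with earlier results of these data known. Alternatives were other floors, scalings, filters, samples, a linear scale, no trend, a replicate block and leaving out each array.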

Additional observations from a re-analysis of the deposited data

Results flagged for a closer look

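The results below drew attention because the strain difference, C57BL/6J minus DBA/2J, was not the same in all regions by the limma test of the interaction (adjusted p under 0.05). Each value is the log2 difference in 1 region minus the mean log2 difference of the other 4 regions, for the region in which it was largest in size, so it need not be a difference between the strains in that region alone. With 2 arrays in each group, no single array was tested for standing apart from its group.

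For the bnst, the value above 0 was Snhg14 1.96, and those below 0 were Ecrg4 -4.15, Kcnj13 -4.10, Cldn2 -3.52, Gpx1 -0.43, Ifi27 -1.16 and Aspa -1.17. For the pituitary, the values above 0 were Adi1 1.34, the dimmer probe set of Cap1 0.84, Klk1b27 3.84, Rab6b 4.02, Gnrhr 3.32, Kctd4 2.03, Pip5k1b 2.59, another probe set of Adi1 0.42, Kcnj9 1.29, Gsto1 1.19, Slc18a2 1.18 and H2-Q2 2.81, and those below 0 were Phgdh -1.96, Arhgap26 -2.63, H2-D1 -3.01, Tmem87a -1.13, Bola2 -1.31, Fstl5 -1.27, Tnfrsf19 -1.78, Kifap3 -1.30, Gsta4 -0.45, Aldh1a1 -0.78, Aldh7a1 -0.81, H2-Ea -3.48 and Klf2 -0.74. For the pag, the value above 0 was Fech 0.62, and those below 0 were Mtmr7 -1.16, Baalc -2.42, Zfp862-ps -1.61, Zic1 -2.27, Gabra2 -1.37, Mpdz -0.33, Cat -0.74 and Gja1 -0.35. For the hippocampus, the values above 0 were Fam163a 2.16, Nnt 0.59 and C1qb 0.47, and those below 0 were Slc27a2 -1.49, Col11a1 -1.50 and the lower probe set of Prune2 -0.55. For the hypothalamus, the value was above 0, with Nsa2 0.99. Of these 48 results, 25 belonged to the pituitary, the region with the widest gap between array medians (64.01 to 67.1 in C57BL/6J and 48.2 to 48.4 in DBA/2J), whose part was not tested. That count is partly set by the choice of genes. Some were named for a difference in 1 region alone and others for a small interaction p. It is therefore no measure of how often the pituitary differed.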

How the results depend on the processing

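Of 111 named results over 104 genes, 76 kept their direction and their side of the threshold in every one of 29 other settings, and none changed direction. Of the 523 probe sets called in all 5 regions, 398 to 501 were still called in all 5 under these settings.

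Counts that moved by over 1.5 times were as follows. With the floor at the 10th percentile of all values, 931 probe sets were over 2-fold higher in C57BL/6J, 16 were called in the hippocampus alone and 2 in the hypothalamus alone, and with the floor at the 40th percentile the counts were 305, 83 and 34. With each array scaled to 1 median, 2345 were called higher, 9747 lower and 276 over 2-fold lower, with 1031 in the bnst alone, 8 in the hypothalamus alone and 11878 by the interaction. The median difference over all probe sets was then -0.08 against 0.06 as deposited. After quantile normalization 2902 were called higher, with 49 in the hippocampus alone and 8 in the hypothalamus alone. With a mean signal of at least 50 in 1 strain, 2343 were called in the pituitary alone and 1 in the hypothalamus alone. With all 61 arrays in the fit, 2256 were called in the pituitary, 400 in the pag, 68 in the bnst, 19 in the hippocampus and 1 in the hypothalamus alone, and 2819 by the interaction. On linear signals 911 were called in the bnst alone, 128 in the hippocampus alone and 9 in the hypothalamus alone, and without a trend in the variance prior 362 in the bnst alone. The causes were not tested.

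The replicate numbers did not pair the samples: the deviations of same-numbered arrays correlated between strains at -0.08 to 0.06 across the regions. With the replicate number as a block, 3181 were called higher and 2387 lower, with 338 in the pag alone, 17 in the bnst alone, 6 in the hippocampus alone, 0 in the hypothalamus alone and 2156 by the interaction.

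Leaving out 1 array at a time gave 3650 to 5571 called higher, 2898 to 3995 lower, 277 to 330 higher and 133 to 167 lower in all 5 regions, 540 to 618 over 2-fold higher and 173 to 185 over 2-fold lower, and 4349 to 7532 by the interaction. It gave 2118 to 4627 in the pituitary alone, 256 to 808 in the pag alone, 40 to 925 in the bnst alone, 16 to 54 in the hippocampus alone and 1 to 26 in the hypothalamus alone. A group left with 1 array was assumed to vary like the others. In 2 fits chosen after seeing the data, leaving out the pituitary gave 2789 higher, 2425 lower and 1854 by the interaction, and leaving out the bnst gave 2255, 1803 and 3315. The counts of probe sets over 2-fold were also added after seeing the data. With 2 arrays a group, precision within a region is limited, and the signal floor hides differences among dim probe sets.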
